A study of Mus musculus with 6 samples.

Results

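Bone vessels are lined by endothelial cells, and 10 genes of these cells were read out in whole tibias of mice with and without *Atrx* in the osteoblast lineage. The genes were chosen by symbol, by looking up *Pecam1*, *Tek*, *Tie1*, *Robo4*, *Esam*, *Emcn*, *Stab1*, *Stab2*, *Sox17* and *Ly6a* among the 55401 gene identifiers of the count data, and each symbol matched 1 identifier. Atrx-cKO tibias (*Osterix-Cre; Atrxf/y*, 3 libraries) were compared with control tibias (*Atrxf/y*, 3 libraries) from male mice at 8 weeks of age. *Osterix-Cre* is a Tet-off transgene driven in preosteoblasts, doxycycline kept it silent until 3 weeks of age, and it is not aimed at endothelial cells. The floxed allele was present in both groups and the transgene only in Atrx-cKO, so *Atrx* loss and the presence of the transgene cannot be told apart in these libraries. Each library was made from polyadenylated RNA of pulverized tibia, and its labels give a replicate number but do not say that replicates were separate animals. The p-values therefore set the difference between groups against the spread between these samples, together with a spread estimated over all tested genes. Whether that is a spread between animals is not known.

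Endothelial cells of long bones form arteries and arterioles that carry blood inward, capillaries near the growth plate and the inner bone surface, and wide sinusoids that drain the marrow. Arterial cells keep their identity through NOTCH signaling and SOXF transcription factors, whereas sinusoidal cells carry scavenger receptors that clear material from blood. In a bulk sample, fewer cells of a type and less RNA per cell cannot be told apart.

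None of the 10 genes passed the test between genotypes. Each had a fitted log2 fold change above 0 in Atrx-cKO against control, from 0.07 for *Tie1* to 0.35 for *Ly6a*, with a median of 0.17 over the 10 genes beside 0.01 over the 20636 genes tested. A fitted change above 0 was found in 51.2% of all tested genes. A gene was called if its adjusted p was under 0.05 and its log2 fold change was 1 or more in either direction, which held for 0.0145% of tested genes and for 0 of the 10. All 10 genes had an adjusted p of 0.992 (edgeR's quasi-likelihood fit, Benjamini-Hochberg adjusted over all tested genes). At an unadjusted p under 0.05, 1 of the 10 was higher in Atrx-cKO, *Tek*, beside 1.59% of all tested genes. DESeq2 also called 0 of the 10, and there *Ly6a* (unadjusted p = 0.0407) and not *Tek* (unadjusted p = 0.0679) was the 1 gene under 0.05, beside 1.11% of its tested genes on the higher side. The 95% interval of the log2 fold change contained 0 for 9 of the 10 genes, and its upper bound was at most 0.72 for any of them, so a change of the size required for a call lay outside every interval.

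Counts on genes ranged from 50977777 to 70571655 per library, and the 10 genes were well covered, with at least 630 counts for *Sox17*, the least counted, in every library. The counting error of a single value was therefore at most 3.98%, and for each gene it was below the spread between libraries of either group, which reached 21.5% of the mean (SD over mean) for *Ly6a* in Atrx-cKO. Control replicate 3 stood apart in its skeletal muscle genes, whose summed level was 11082 CPM (counts scaled to library size by the TMM method) beside 657 to 2324 CPM in the other libraries. Control replicates 2 and 3 also differed from control replicate 1 in cell markers, as described with the gene lists.

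All locations are those of GENCODE M21 on GRCm38, the build that the submitters' processing notes name. *Tek* (ENSMUSG00000006386, chr4:94739289-94874976, plus strand) and *Tie1* (ENSMUSG00000033191, chr4:118471191-118490061, minus strand) lie far apart on chromosome 4. *Robo4* (ENSMUSG00000032125, chr9:37401897-37415115, plus strand) and *Esam* (ENSMUSG00000001946, chr9:37528078-37538319, plus strand) lie 112963 bases from each other on chromosome 9. *Pecam1* is ENSMUSG00000020717 (chr11:106654217-106750628, minus strand) and *Emcn* is ENSMUSG00000054690 (chr3:137341067-137432185, plus strand). The stabilin genes are on separate chromosomes, *Stab1* (ENSMUSG00000042286) at chr14:31139013-31168641 and *Stab2* (ENSMUSG00000035459) at chr10:86841198-87008025, both on the minus strand. *Sox17* (ENSMUSG00000025902, chr1:4490931-4497354) and *Ly6a* (ENSMUSG00000075602, chr15:74994877-74998031) are also on the minus strand.

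Some counts share sequence with other genes. Among words of 75 bases in the annotated exons of each gene, 14.1% of *Sox17* also lie in *Gm37587*, a transcript on the opposite strand with 804 shared exonic bases and 5 to 27 counts per library. The libraries were made strand specific, but whether the counting used strand is not given in the sources used here. In *Ly6a*, 6.33% of the words also occur in its relatives *Ly6c1* and *Ly6i* of the same family, so the levels of *Sox17* and *Ly6a* are less certain than those of the other genes. *Stab2* shared 0.804% of its words with *Gm16268* on the opposite strand, *Stab1* shared 0.34% with *Nt5dc2* and *Pecam1* shared 0.455% with 3 other genes. *Emcn*, *Tek*, *Tie1*, *Robo4* and *Esam* shared none.

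ETS factors such as ERG and FLI1 bind a GGAA core and are well known regulators of endothelial promoters, so the start regions of the 10 genes were read for that core. RefSeq windows on GRCm38.p6 covering 250 bases before the start within 300 bases in all were matched for 6 of the 10 genes, *Emcn*, *Tek*, *Tie1*, *Stab1*, *Stab2* and *Robo4*. The word CAGGAA, read on both strands and overlapping the shorter word GGAA by construction, was present in 6 of 6 of these windows and in 30.6% of all 32851 windows. It was 1 of 14 words searched. GGAA alone was in 6 of 6 and in 96% of all windows, and AGGAAG, which overlaps CAGGAA, was in 5 of 6 and in 35.4%. The words CCGGAA and GGGCGG (a GC box) were in 0 of 6, beside 14.9% and 35.7% of all windows, and the TATA word TATAAA was in 0 of 6 beside 13.6%. The windows held 2 to 7 CpG dinucleotides each, at or below the median of 7 over all windows. The single CAGGAA match of *Stab2* lies upstream of the annotated gene, while *Tie1* and *Robo4* have 0 matches there, in 38 and 175 upstream bases. The stretches upstream of *Tek*, *Emcn* and *Stab1* are shown because both matches of each window lie upstream of the annotated gene. They are chr4:94739039-94739288 (plus strand), chr3:137340828-137341066 (plus strand) and chr14:31168642-31168891 (minus strand), written 5′ to 3′ along the gene, with CAGGAA or its reverse complement TTCCTG in capitals.
Tek: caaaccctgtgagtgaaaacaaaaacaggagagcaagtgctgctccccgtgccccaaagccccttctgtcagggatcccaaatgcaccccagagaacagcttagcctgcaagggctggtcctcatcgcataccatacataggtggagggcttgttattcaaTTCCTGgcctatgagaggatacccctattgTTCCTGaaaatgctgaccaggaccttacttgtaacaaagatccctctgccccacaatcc
Emcn: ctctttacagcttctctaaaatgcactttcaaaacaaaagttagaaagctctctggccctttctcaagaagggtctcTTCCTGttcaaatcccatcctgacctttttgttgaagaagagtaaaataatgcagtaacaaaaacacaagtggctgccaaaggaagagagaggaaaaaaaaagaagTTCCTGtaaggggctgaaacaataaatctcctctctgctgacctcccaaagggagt
Stab1: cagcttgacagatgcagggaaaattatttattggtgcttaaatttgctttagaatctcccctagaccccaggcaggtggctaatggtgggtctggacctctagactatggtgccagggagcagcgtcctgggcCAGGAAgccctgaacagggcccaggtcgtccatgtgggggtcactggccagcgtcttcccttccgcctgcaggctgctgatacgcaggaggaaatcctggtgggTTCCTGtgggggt

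Receptors and adhesion molecules shared by all endothelial cells came first. *Pecam1* encodes the junction molecule CD31, which platelets and many leukocytes also carry. It was at 135, 116 and 123 CPM in control replicates 1, 2 and 3 and at 134, 141 and 136 CPM in Atrx-cKO replicates 1, 2 and 3. Control replicate 1 lay within the range of the Atrx-cKO libraries, and the other two controls lay below it. The log2 fold change was 0.13 (standard error 0.083, 95% interval -0.060 to 0.326).

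*Tek* encodes TIE2, the receptor for angiopoietins. It was at 47.1, 42.1 and 37.6 CPM in the controls and at 49.4, 47.6 and 52.2 CPM in Atrx-cKO, so the groups did not overlap under this scaling. *Tek* was the only one of the 10 genes whose groups did not overlap with Atrx-cKO higher, beside 4.30% of all tested genes. The gap between the nearest libraries was small, 47.1 against 47.6 CPM, and it closed when counts were divided by plain library totals, with 49.4 CPM in control replicate 1 and 49.3 CPM in Atrx-cKO replicate 2. Under plain totals *Stab1* was the 1 gene of the 10 without overlap. The fit gave *Tek* a log2 fold change of 0.24 (standard error 0.098, 95% interval 0.0073 to 0.463, unadjusted p = 0.0447 and adjusted p = 0.992 in edgeR).

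*Tie1* encodes the orphan partner receptor of TIE2. Its controls were at 96.3, 75.2 and 75.7 CPM and its Atrx-cKO libraries at 78.5, 90.7 and 89.8 CPM. The highest library was control replicate 1, and the groups overlapped over most of their range. *Tie1* had the smallest log2 fold change of the 10 genes, 0.07 (95% interval -0.206 to 0.339), and without control replicate 3 it was -0.0034.

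*Robo4*, an endothelial guidance receptor that steadies vessel walls, was at 49.8, 44.2 and 43.2 CPM in the controls and at 43.0, 50.8 and 51.9 CPM in Atrx-cKO. The lowest library was an Atrx-cKO one, and the fitted log2 fold change was 0.09 (95% interval -0.149 to 0.32). *Esam*, a tight junction adhesion molecule also found on platelets and megakaryocytes, was at 51.2, 43.6 and 42.0 CPM in the controls and at 51.5, 57.4 and 47.4 CPM in Atrx-cKO. Its control replicates 2 and 3 lay below all Atrx-cKO libraries and control replicate 1 lay among them, for a log2 fold change of 0.19 (95% interval -0.058 to 0.442).

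**Figure D1:**
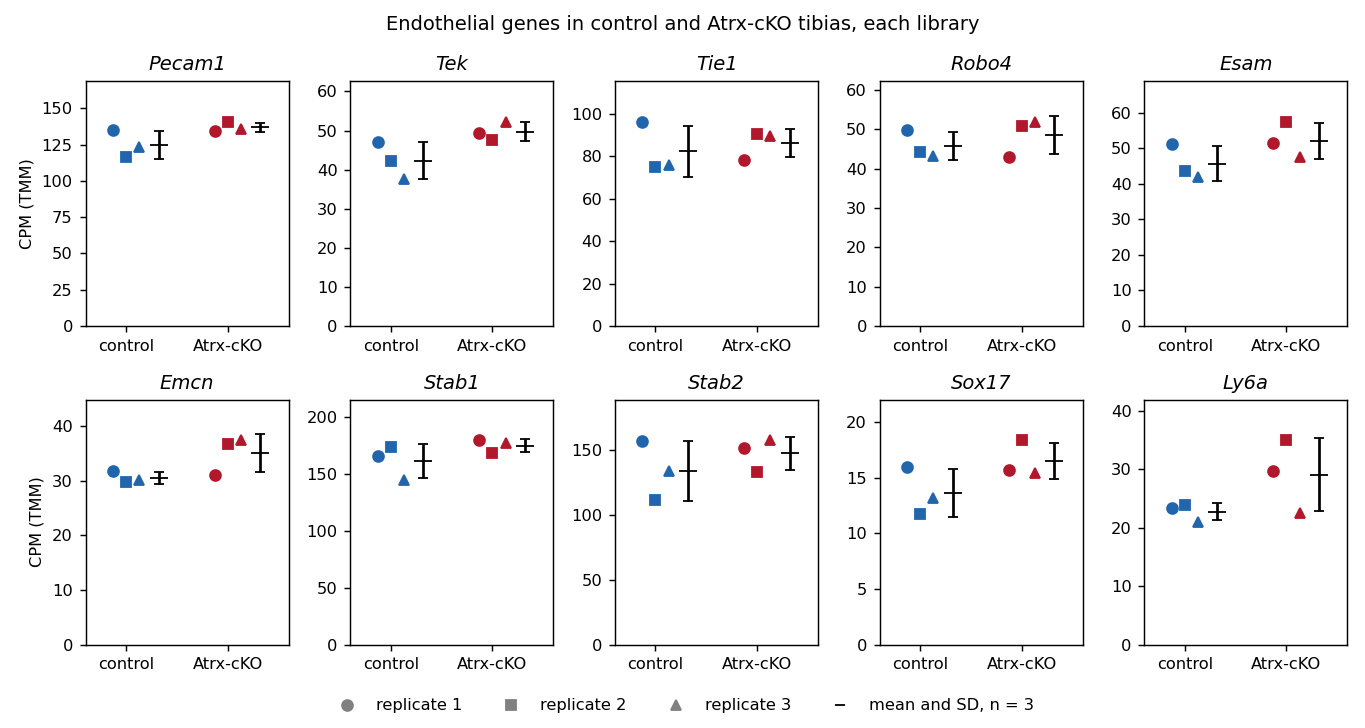
CPM (counts scaled to library size) of each endothelial gene in the 3 control (blue) and 3 Atrx-cKO (red) libraries, with replicates 1, 2 and 3 as circles, squares and triangles and the mean and SD (n = 3) as black bars. *Tek* is the 1 gene whose groups do not overlap, and in *Pecam1*, *Emcn*, *Esam* and *Sox17* control replicates 2 and 3 lie below the Atrx-cKO libraries while control replicate 1 lies among them.

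Genes of sinusoids and capillaries came next. *Emcn* encodes endomucin, a sialomucin of capillary and venous endothelium that marks the type H vessels of growing bone. Its controls were close together, at 31.9, 29.8 and 30.1 CPM, and its Atrx-cKO libraries were at 31.1, 36.8 and 37.4 CPM. Atrx-cKO replicate 1 lay inside the control range, below control replicate 1, and the other Atrx-cKO libraries lay above it. The log2 fold change was 0.20 (standard error 0.096, 95% interval -0.024 to 0.424, unadjusted p = 0.0734 from edgeR's test).

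*Stab1* and *Stab2* encode stabilins, scavenger receptors of sinusoidal endothelium, and *Stab1* is also made by some macrophages. *Stab1* was at 166, 174 and 145 CPM in the controls and at 180, 169 and 177 CPM in Atrx-cKO. *Stab2* was at 157, 111 and 134 CPM in the controls and at 152, 133 and 157 CPM in Atrx-cKO. Control replicate 2 was the highest control for *Stab1* and the lowest for *Stab2*, so the stabilin genes did not follow each other among the controls. Their log2 fold changes were 0.12 (95% interval -0.097 to 0.331) for *Stab1* and 0.14 (95% interval -0.178 to 0.453) for *Stab2*. Single libraries moved both, *Stab1* to 0.03 without control replicate 3, and *Stab2* to 0.02 without control replicate 2 and 0.27 without control replicate 1.

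The arterial genes were the least abundant in CPM. *Sox17* encodes a SOXF transcription factor required in arterial endothelium. It was at 16.0, 11.8 and 13.2 CPM in the controls and at 15.7, 18.4 and 15.4 CPM in Atrx-cKO, with control replicate 1 again within the Atrx-cKO range and the other controls below it. The log2 fold change was 0.27 (95% interval -0.059 to 0.602, unadjusted p = 0.0942 from edgeR's test).

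*Ly6a* encodes SCA-1, a surface protein of arterial and arteriolar endothelium in marrow and also of blood stem cells and some lymphocytes. Its controls were at 23.3, 23.9 and 21 CPM, and Atrx-cKO replicates 1, 2 and 3 were at 29.8, 35.0 and 22.5 CPM. Atrx-cKO replicate 3 lay within the control range while the other Atrx-cKO libraries lay above it. *Ly6a* had the largest log2 fold change of the 10, 0.35 (standard error 0.158, 95% interval -0.014 to 0.723, unadjusted p = 0.0572 from edgeR's test), which went from 0.20 without Atrx-cKO replicate 2 to 0.51 without Atrx-cKO replicate 3.

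**Figure D2:**
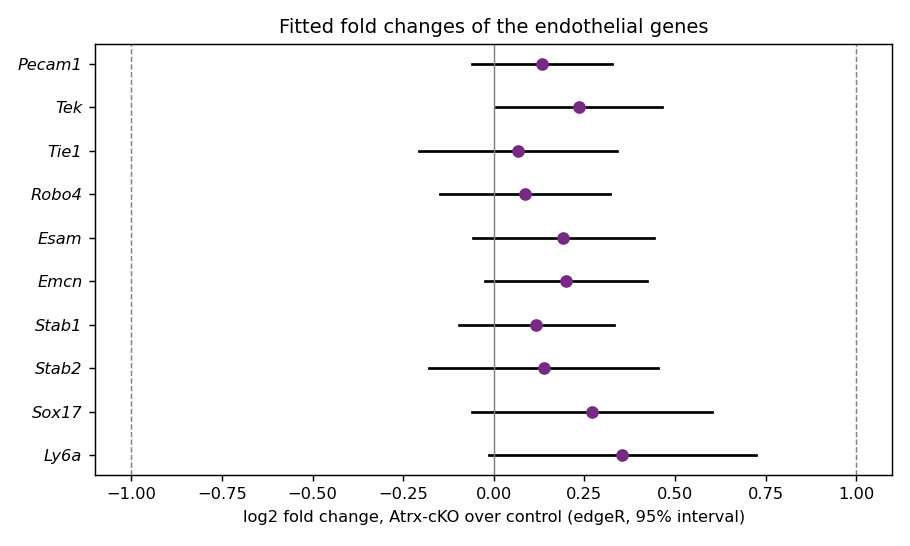
Fitted log2 fold change of Atrx-cKO over control for each endothelial gene (points) with its 95% interval (lines) from edgeR, with a solid line at 0 and dashed lines at the size required for a call. All 10 points lie above 0, 9 of the 10 intervals cross 0, and the highest bound, that of *Ly6a*, is 0.723.

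Among the fits without a single library, leaving out control replicate 1 gave the highest log2 fold change for *Pecam1* (0.20), *Tek* (0.32) and *Tie1* (0.19). The same held for *Esam* (0.28), *Stab2* (0.27) and *Sox17* (0.40). Their lowest were 0.08 for *Pecam1*, 0.17 for *Sox17* and 0.02 for *Stab2* without control replicate 2. They were 0.14 for *Tek* and -0.0034 for *Tie1* without control replicate 3, and 0.12 for *Esam* without Atrx-cKO replicate 2. *Emcn* ranged from 0.15 to 0.28 and *Robo4* from 0.03 to 0.17, both with their highest value without Atrx-cKO replicate 1.

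A pattern across the 6 libraries was seen in the values and then counted, so it is a description without a test. Control replicates 2 and 3 both lay below the lowest Atrx-cKO library for 6 of the 10 genes, beside 13.7% of all tested genes. Control replicate 1 lay within the Atrx-cKO range for 7 of the 10, beside 52.9% of tested genes, and was above control replicates 2 and 3 for 8 of the 10, beside 34.6%. The summed level of the 10 genes was 765, 779 and 787 CPM in Atrx-cKO, 774 CPM in control replicate 1, and 671 and 664 CPM in control replicates 2 and 3.

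The arterial and sinusoidal genes were then set against each other within each library. The sum of *Sox17* and *Ly6a* was 39.3, 35.7 and 34.3 CPM in the controls and 45.5, 53.3 and 37.9 CPM in Atrx-cKO, and the groups overlapped. The sum of *Emcn*, *Stab1* and *Stab2* was 355, 314 and 308 CPM in the controls and 362, 338 and 372 CPM in Atrx-cKO, which also overlapped. Arterial genes therefore came to 11.1%, 11.3% and 11.1% of the sinusoidal sum in the controls and to 12.6%, 15.8% and 10.2% in Atrx-cKO. The controls were close to each other and lay within the range of the Atrx-cKO libraries.

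As a mean of log2(CPM + 0.5), the arterial genes lay below the sinusoidal genes by a difference of -2.27 ± 0.017 (SD, n = 3) in controls and -2.13 ± 0.274 (SD, n = 3) in Atrx-cKO. The contrast between groups was 0.145, less than the spread between Atrx-cKO libraries. It came to 0.287 without Atrx-cKO replicate 3 and 0.014 without Atrx-cKO replicate 2. With wider lists of 16 arterial and 15 sinusoidal and venous genes, the same difference was -0.79 ± 0.044 (SD, n = 3) in controls and -0.97 ± 0.076 (SD, n = 3) in Atrx-cKO. The contrast was then -0.182, of opposite sign and larger than the spread in either group. With these lists the groups did not overlap, at -0.74 to -0.83 in controls and -0.89 to -1.04 in Atrx-cKO, and no p is given for such a score. Some listed genes set control replicate 1 apart from the other controls, as markers of other cells did. *Unc5b* of the arterial list was at 306, 415 and 435 CPM in the controls, and *Selp* of the sinusoidal and venous list at 55.5, 38.1 and 37.3 CPM. The control means of *Unc5b* (385 CPM) and of *Vcam1* in the sinusoidal and venous list (361 CPM) were above that of the endothelial gene *Vwf* (252 CPM). The lists are named for vessel types, but bulk RNA does not show which cells made each gene. *Lrg1* was at 196 CPM in Atrx-cKO replicate 1 alone. The part of such genes in the contrast was not tested.

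Levels were also compared between genes, as CPM per kilobase of annotated exon. In the controls the order from highest to lowest was *Pecam1* at 20.0 ± 1.55, *Ly6a* at 18.9 ± 1.25, *Tie1* at 16.8 ± 2.45, *Esam* at 15.9 ± 1.70, *Stab1* at 15.7 ± 1.46, *Stab2* at 15.3 ± 2.63, *Tek* at 8.97 ± 1.01, *Robo4* at 8.63 ± 0.672, *Emcn* at 5.66 ± 0.206 and *Sox17* at 2.86 ± 0.452 CPM per kilobase (SD, n = 3). Neighbors from *Pecam1* down to *Stab2* had overlapping ranges in the controls, as did *Tek* and *Robo4*, while the steps from *Stab2* to *Tek*, from *Robo4* to *Emcn* and from *Emcn* to *Sox17* did not overlap. The same 3 steps did not overlap in Atrx-cKO, nor did those from *Ly6a* to *Tie1* and from *Tek* to *Robo4*. *Ly6a* was at 24.1 ± 5.19 CPM per kilobase (SD, n = 3) in Atrx-cKO, above *Pecam1* at 22.0 ± 0.537, though their ranges overlapped.

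**Figure D3:**
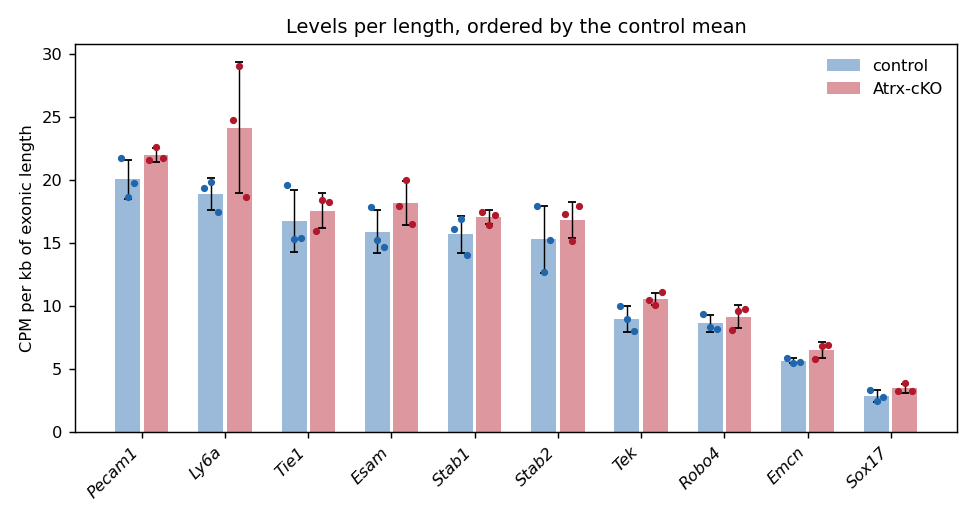
CPM per kilobase of exonic length of the 10 endothelial genes, ordered by the control mean, in control (blue) and Atrx-cKO (red) libraries, with bars for the mean, lines for the SD (n = 3) and points for libraries. Levels fall in steps from *Pecam1* at 20.0 to *Sox17* at 2.86 CPM per kilobase in the controls, and no neighboring pair among the 6 highest genes is separated by its control ranges, while *Ly6a* lies above *Tie1* in all Atrx-cKO libraries.

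Other endothelial genes were read in the same fit, and no gene of any list was called, beside 0.0145% of all tested genes. Of all tested genes, 51.2% had a log2 fold change above 0 and 1.59% were higher at an unadjusted p under 0.05. The counts of each list stand beside these shares. Of 18 other genes shared by endothelial cells, 17 had a log2 fold change above 0 and 1 below, with a median of 0.11, and 2 had an unadjusted p under 0.05. They were *Icam2*, a junctional adhesion molecule, at 13.6 ± 1.35 CPM (SD, n = 3) in controls and 16.9 ± 0.315 in Atrx-cKO (log2 fold change 0.32, 95% interval 0.064 to 0.566), and *Eng*, a co-receptor of the TGF-β family, at 131 ± 5.97 and 153 ± 12.2 CPM (log2 fold change 0.22, 95% interval 0.021 to 0.427). *Ecscr* was the 1 gene below 0, at -0.04. *Vwf*, the clotting factor of endothelial cells and megakaryocytes and the most abundant of the list, was at 368, 188 and 199 CPM in the controls and at 283, 288 and 282 CPM in Atrx-cKO, so control replicate 1 was the highest library and the other controls were the lowest.

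Of 14 other arterial genes, 8 had a log2 fold change above 0 and 6 below, with a median of 0.02. The genes at an unadjusted p under 0.05 lay on opposite sides. *Vegfc*, a growth factor for lymphatic and blood vessels, was at 25 ± 1.94 CPM (SD, n = 3) in controls and 34.1 ± 1.77 in Atrx-cKO (log2 fold change 0.45, 95% interval 0.232 to 0.661). *Efnb2*, the arterial ligand of EPHB4 that osteoclasts and other bone cells also make, was at 29.1 ± 1.6 CPM in controls and 23.2 ± 1.48 in Atrx-cKO (log2 fold change -0.33, 95% interval -0.538 to -0.116). The groups did not overlap for either gene, and both had an adjusted p of 0.992 (edgeR). Of all tested genes, 4.30% did not overlap with Atrx-cKO higher, and the share with Atrx-cKO lower was not counted.

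All 12 other sinusoidal and venous genes had a log2 fold change above 0, beside 51.2% of all tested genes, and their median was 0.26. For 7 of the 12, control replicates 2 and 3 lay below every Atrx-cKO library, beside 13.7% of all tested genes. Bulk RNA does not show which cells made these genes, and the part of other cells in their values was not tested. *Flt4*, the VEGFC receptor VEGFR3, was at 71.5 ± 6.43 CPM (SD, n = 3) in controls and 86.0 ± 7.05 in Atrx-cKO (log2 fold change 0.27, 95% interval 0.044 to 0.489). *Sele*, the leukocyte-binding E-selectin, was at 11.9 ± 0.688 CPM in controls and 14.8 ± 1.87 in Atrx-cKO (log2 fold change 0.31, 95% interval 0.017 to 0.595). These were the 2 genes of the list at an unadjusted p under 0.05. Their control and Atrx-cKO libraries did not overlap, nor did those of *Nr2f2* (unadjusted p = 0.103 in edgeR), beside 4.30% of all tested genes with Atrx-cKO higher. *Lrg1* had the highest log2 fold change, 0.56, which came from Atrx-cKO replicate 1 at 196 CPM beside 59.3 to 82.4 CPM in the other libraries. *Ephb4* had the lowest, 0.06, and *Vcam1*, the most abundant, ranged from 304 to 477 CPM over the 6 libraries.

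The pathways of the receptors were followed next. In the angiopoietin and TIE pathway, 8 of 8 genes, *Tek* and *Tie1* included, had a log2 fold change above 0, as did 6 of 6 without them with a median of 0.21, and *Tek* and *Angpt2* had an unadjusted p under 0.05. *Angpt2*, the angiopoietin released by endothelial cells that can block TIE2, was at 14.2, 14.4 and 14.6 CPM in the controls and at 18.4, 17.3 and 17.6 CPM in Atrx-cKO. Its replicates were close together and its groups did not overlap, as in 4.30% of all tested genes with Atrx-cKO higher. The log2 fold change of *Angpt2* was 0.30 (95% interval 0.095 to 0.508, unadjusted p = 0.0101 and adjusted p = 0.992 in edgeR). *Foxo1*, the transcription factor downstream of TIE2 signaling, was at 0.03, and *Ptprb*, the phosphatase that acts on TIE2 and the most abundant gene of the pathway, was at 0.09.

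Of 8 SLIT and ROBO genes, *Robo4* included, 3 had a log2 fold change above 0 and 5 below, with a median of -0.07 and 0 at an unadjusted p under 0.05. *Robo1* was lowest at -0.35 (95% interval -0.836 to 0.144) and *Robo3* highest at 0.35 (95% interval -0.172 to 0.880). *Unc5b*, a netrin receptor that also binds ROBO4, was the most abundant, at 306, 415 and 435 CPM in the controls and 360 to 377 CPM in Atrx-cKO. The SOXF genes *Sox17*, *Sox18* and *Sox7* were at 0.27, 0.14 and 0.11 on the log2 fold change scale. All 6 stabilin and clearance receptor genes had a log2 fold change above 0, as did the 4 besides *Stab1* and *Stab2* (median 0.23), from *Mrc1* at 0.10 to *Lyve1* at 0.31. Of the tested relatives of *Ly6a*, 9 without *Ly6a* itself, 7 had a log2 fold change above 0 and 2 below (median 0.13), from *Lynx1* at -0.45 to *Ly6i* at 0.42, with *Ly6e* the most abundant at 272 ± 47.9 CPM (SD, n = 3) in controls and 313 ± 26.4 in Atrx-cKO.

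Lists for other cells of the tibia were read beside these. Lymphatic endothelial markers were scarce where they define the cell, with *Prox1*, their master transcription factor, at 0.135 to 0.805 CPM and *Ccl21a* at 0 in all libraries. *Pdpn*, which osteocytes share with lymphatic vessels, was at 22.6, 41.7 and 36.3 CPM in the controls and at 19.5, 20.7 and 23.9 CPM in Atrx-cKO. Mural cell genes, those of pericytes and vascular smooth muscle, had 6 of 10 log2 fold changes above 0 with a median of 0.02, and ranged from *Cspg4* at -0.12 to *Mcam* at 0.23, with *Rgs5* the most abundant at -0.02. Macrophage genes had 8 of 12 above 0 with a median of 0.10, and the genes at an unadjusted p under 0.05 were *C1qa*, a complement component, at 0.26 and *Csf1r*, the most abundant of them, at -0.23. *Vsig4* was highest at 0.61 and *Timd4* lowest at -0.96. The summed macrophage level was 975 to 1008 CPM in Atrx-cKO and 913 to 1066 CPM in controls. Blood stem and progenitor genes had 6 of 10 above 0 with a median of 0.04, from *Flt3* at -0.19 to *Slamf1* at 0.42, and *Mpo* was the most abundant at 0.13.

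Markers of other cells moved with the endothelial genes among the libraries. Megakaryocyte and platelet genes had 9 of 9 tested log2 fold changes above 0, with a median of 0.33, and all 9 had control replicates 2 and 3 below every Atrx-cKO library. That median was 0.71 without control replicate 1, 0.15 without control replicate 2 and 0.16 without control replicate 3. Their summed level was 1617 to 1696 CPM in Atrx-cKO, 1902 CPM in control replicate 1 and 1016 and 1014 CPM in control replicates 2 and 3. The list ran from *Itga2b* at 0.27 to *Gp6* at 0.37. *Ppbp*, a platelet chemokine and the most abundant of them, was at 891, 496 and 479 CPM in the controls and at 797, 829 and 781 CPM in Atrx-cKO. Erythroid genes summed to 3851 to 4977 CPM in Atrx-cKO and to 6370, 2477 and 3065 CPM in the controls, with a median log2 fold change of 0.08, from *Klf1* at -0.22 to *Hbb-bs*, the most abundant, at 0.22. The erythroid median changed sign with the controls used, at 0.57 without control replicate 1, -0.18 without control replicate 2 and -0.10 without control replicate 3.

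Osteoblast genes went the other way. Of 10, 9 had a log2 fold change below 0 and 1, *Phex*, above it, with a median of -0.20. *Ibsp*, a matrix protein of mineralizing bone, was the 1 gene at an unadjusted p under 0.05, with a log2 fold change of -0.51 (95% interval -0.921 to -0.096). The summed level was 65783 to 66890 CPM in Atrx-cKO, 61131 CPM in control replicate 1, and 103107 and 93416 CPM in control replicates 2 and 3, mostly *Col1a1*. Control replicates 2 and 3 thus had more osteoblast signal and less megakaryocyte, erythroid and endothelial signal than control replicate 1. With the osteoblast list as a covariate in the fit, a choice made after the data were seen, 8 of the 10 endothelial genes had a log2 fold change above 0, with *Tie1* at -0.045 and *Stab2* at -0.041. Osteoblasts are of the lineage in which *Atrx* was deleted, so that fit cannot tell their share from genotype. The part of these cells in the endothelial values was not tested.

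**Figure D4:**
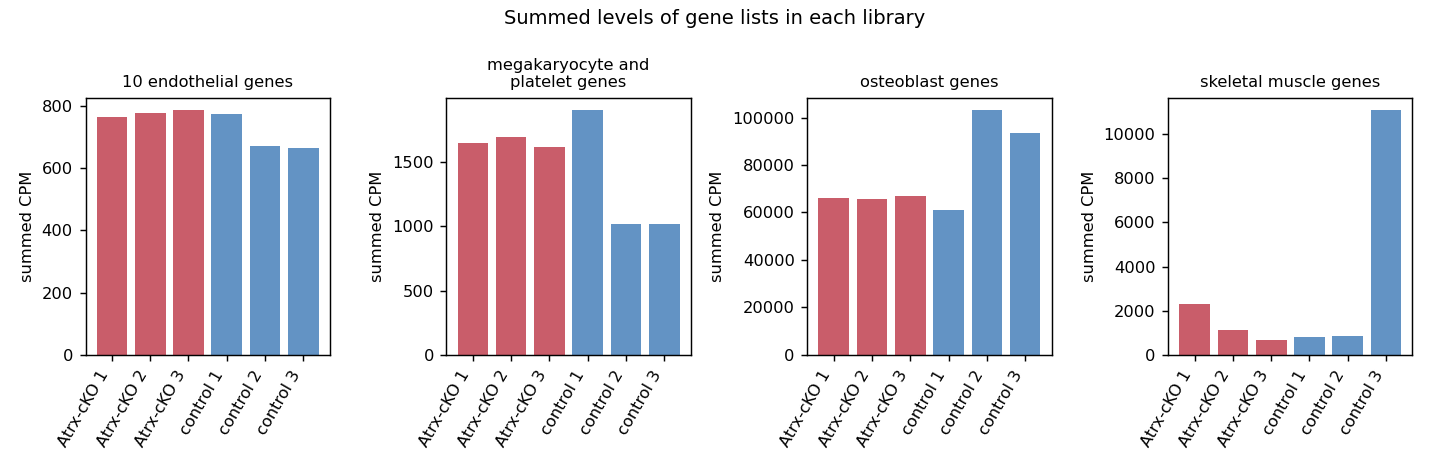
Summed CPM of the 10 endothelial genes and of the megakaryocyte and platelet, osteoblast and skeletal muscle lists, 1 bar per library, each panel with its own axis from 0. Control replicates 2 and 3 have the lowest endothelial sums (671 and 664 CPM), the lowest megakaryocyte and platelet sums (1016 and 1014 CPM) and the highest osteoblast sums (103107 and 93416 CPM), and control replicate 3 alone has a skeletal muscle sum of 11082 CPM.

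Skeletal muscle genes had 9 of 10 log2 fold changes below 0 with a median of -1.50, which was 0.62 without control replicate 3, and the 1 gene above 0 was *Myh2* at 0.62. *Myh4*, a fast myosin, was at 91.5, 188 and 4627 CPM in the controls and at 670, 335 and 240 CPM in Atrx-cKO. With the muscle list as a covariate, all 10 endothelial genes kept a log2 fold change above 0, and without control replicate 3, 9 of the 10 did.

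**Figure D5:**
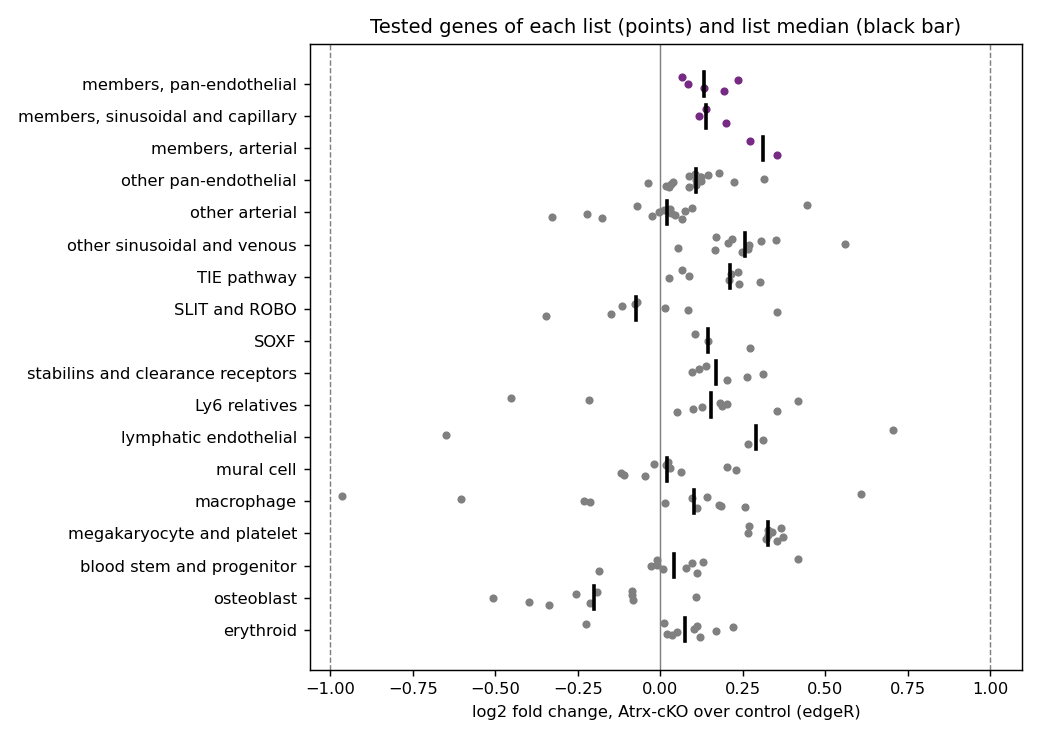
Log2 fold change (Atrx-cKO over control, edgeR) of each tested gene (points) in the gene lists, with the list median as a black bar, a solid line at 0 and dashed lines at the size required for a call. The skeletal muscle list, with a median of -1.50, is not drawn. All 12 other sinusoidal and venous genes and all 9 megakaryocyte and platelet genes lie above 0, beside 51.2% of all tested genes.

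The endothelial genes were also compared with each other over the 6 libraries, as descriptions over the same 6 libraries, of which control replicates 2 and 3 had the lowest means. The Pearson r of each gene with the mean of the other 9 was highest for *Pecam1* (0.947), *Sox17* (0.918) and *Esam* (0.895) and lowest for *Stab2* (0.511), *Ly6a* (0.494) and *Stab1* (0.463). Without control replicates 2 and 3, over 4 libraries, *Pecam1* was at 0.988 and *Sox17* at 0.843. *Esam* (0.559), *Emcn* (0.542) and *Robo4* (0.306) were lower, and *Tie1* (0.03) and *Ly6a* (-0.00212) were near 0. *Tek* was at -0.36, *Stab1* at -0.48 and *Stab2* at -0.93. The tested genes outside the 10 whose levels were most like their mean were *Slc6a3* (r = 0.995), *Ubash3b* (0.992), *Tmod3* (0.985), *Rfx7* (0.984) and *Slamf1* (0.981). *Ubash3b*, for example, was at 71.2, 44.8 and 47.0 CPM in the controls and at 70.0, 80.8 and 73.1 CPM in Atrx-cKO.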

How the data were processed

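Tibia RNA was sequenced as 3 Atrx-cKO and 3 control libraries, 1 per sample. The authors deposited raw counts per gene for each library without normalization. The submitters' processing notes name GRCm38 and DESeq2, and the aligner and the counting program are not given in the sources used here. Entries that name no gene were kept out of library sizes, the largest being reads on no feature at 51.6% to 52.4% of each table. GENCODE M21 matched 55141 of 55401 identifiers.

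Counts were fitted over the whole table with edgeR 4.0.16 in R 4.3.3 (TMM, filterByExpr at its defaults, glmQLFit and glmQLFTest, genotype alone), which kept 20636 genes. A gene was called if its p, adjusted by Benjamini-Hochberg, was under 0.05 and its log2 fold change was 1 or more in either direction. Standard errors were derived from the log2 fold change and its F statistic. DESeq2 1.42.0 served as an alternative. Between libraries of 1 group, chi-square divided by its degrees of freedom was 15.8 to 137, above sampling noise, so none was counted as a repeat of another. An exact permutation test of 3 against 3 cannot go below p = 0.1 and was not used. On simulated counts for the Atrx-cKO against control comparison, with 20292 genes tested, edgeR recovered 98 of 100 genes changed 4-fold and 45 of 100 changed 2-fold, which sit at the size threshold, with 6 false calls. The simulation drew each gene independently, with a spread set by its mean level. It held no shifts shared by many genes, such as those of the muscle genes, so these numbers need not hold for the real libraries.

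The endothelial genes and the gene lists were chosen with earlier results of these data known. Named list genes were those with the highest and the lowest log2 fold change, the most abundant and all at an unadjusted p under 0.05. Lists were described by counts and medians, and no set test was run. Alternatives were other scalings and filters, a replicate block, covariates for skeletal muscle and osteoblast lists, and leaving out each library. The osteoblast covariate was added after the data were seen.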

Additional observations from a re-analysis of the deposited data

How the results depend on the processing

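The count of endothelial genes called was 0 under all 14 alternatives. The number at an unadjusted p under 0.05 ranged from 0 to 5, with 5 (*Pecam1*, *Tek*, *Stab2*, *Sox17* and *Esam*) without control replicate 1, where 4.13% of all tested genes were higher at that p and the lowest adjusted p of the 10 was 0.338 (edgeR's quasi-likelihood test). The median log2 fold change of the 10 genes ranged from 0.08 to 0.25. *Tie1* was at -0.045 and *Stab2* at -0.041 with the osteoblast covariate, and *Tie1* ranged from -0.0034 to 0.194 when single libraries were left out. Over all genes, those called higher numbered 3, and 10 with DESeq2, 1 with at least 10 counts required in every library, 0 with the osteoblast covariate and 0 to 5 with single libraries left out (5 without control replicate 3). Those called lower numbered 0, and 13 with DESeq2, 1 without a filter and 0 to 1 with single libraries left out, while 423 genes were lower at an unadjusted p under 0.05. The cause of these shifts was not tested. The contrast of arterial against sinusoidal level was 0.145, -0.182 with the wider lists, and 0.014 to 0.287 with single libraries left out. The median of the skeletal muscle list was 0.099 with the muscle covariate and -1.986 to 0.624 with single libraries left out. Medians of the other arterial (-0.082 to 0.067), mural cell (-0.054 to 0.045), macrophage (-0.020 to 0.205) and blood stem and progenitor (-0.025 to 0.150) lists also changed sign when single libraries were left out.

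The labels do not say whether same-numbered libraries were paired. Deviations of same-numbered libraries from their group means correlated at -0.00315, 0.108 and -0.0996, and 2 of 6 libraries correlated best with their own number. With 3 libraries a group these deviations depend on each other, so the correlations cannot decide whether the libraries were paired. With a replicate block, 0 genes were called higher, 0 endothelial genes were called and 1 was at an unadjusted p under 0.05, which was *Ly6a* and no longer *Tek*, beside 2.02% of tested genes on the higher side. The spread between 3 libraries a group was above the counting error for each of the 10 genes. The width of their intervals came from that spread together with a spread that edgeR estimates over all tested genes.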
